A study of Mus musculus with 4 samples.

Results

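The 9 transcription factor genes that give parts of the forebrain their regional identity, Emx1, Emx2, Lhx2, Otx1, Otx2, Pax6, Nr2f1, Nr2f2 and Dmrta2, were read out by RNA sequencing in cultured astrocytes of the mouse cortex. Each symbol was matched to the gene name given in the files, and all 9 were found, each on 1 gene ID among 55467. The cultures were CD38 KO, which lack the NAD+-consuming surface enzyme CD38, or wild type (WT), with 2 libraries of each genotype. Astrocytes were grown from cortices of pups aged 1 to 3 days, kept 14 days in medium with 10% fetal bovine serum, shaken for 12 h to remove loose cells, replated and harvested 5 days later. Both genotypes were handled in this way and received no other agent. Strain, sex, the CD38 exons removed and whether a library stands for 1 animal, a litter or pooled cultures were not stated in the sources at hand. The spread behind the p-values below is therefore that of these samples and may be technical. The series is about astrocytic CD38 after birth, synapses and social memory, and the comparison here asks whether regional identity genes differ without CD38.

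During development the telencephalon is patterned by transcription factors expressed in gradients. Lhx2, Pax6, Emx1, Emx2 and Dmrta2 act in progenitors of the pallium, the dorsal part that forms the cortex, and Nr2f1 and Nr2f2 (COUP-TFI and COUP-TFII) are nuclear receptors that set cortical area and interneuron programmes. Otx1 and Otx2 mark the anterior neural plate, with Otx2 known after birth mainly from the choroid plexus, the midbrain and the retina. Glia of the cortex arise from the same progenitors as its neurons and can carry such factors on in culture.

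The values are FPKM, in which fragments are divided by transcript length and by library depth, so levels of different genes are set side by side per length. Steps in the low values put the depth of both CD38 KO libraries at about 29.1 M fragments, against 26.8 and 28.3 M fragments for the WT libraries. Cd38 itself was at 0.0222 FPKM in each CD38 KO library, against 3.13 and 3.45 FPKM in the WT libraries, so the transcript followed the genotype labels. The cultures carried the astrocyte label in their transcripts: 17 of 18 astrocyte genes averaged at least 1 FPKM, with Glul, glutamine synthetase, at a mean of 1445 FPKM. They also held transcripts of microglia and macrophages, whose 20 genes summed to 936 and 836 FPKM in CD38 KO 1 and 2, against 182 and 169 FPKM in WT 1 and 2. In bulk RNA, fewer cells of a type and less RNA per cell cannot be told apart.

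The promoter sequences of 4 members are shown because they span the range of levels found, from the most abundant factors to the least abundant one tested, and because the 250 bases lie outside the annotated span of the gene. They are from RefSeq on GRCm38.p6, written 5′ to 3′ on the strand of the gene and ending at the base before the RefSeq start. Capitals mark matches, on either strand, to the CCAAT box (CCAAT) or to the OTX-type homeodomain site (TAATCC). The windows are chr2:38339031-38339280 (plus strand) for Lhx2, chr2:105668646-105668895 (plus) for Pax6, chr4:109977775-109978024 (plus) for Dmrta2 and chr7:70366747-70366996 (minus) for Nr2f2.
Lhx2: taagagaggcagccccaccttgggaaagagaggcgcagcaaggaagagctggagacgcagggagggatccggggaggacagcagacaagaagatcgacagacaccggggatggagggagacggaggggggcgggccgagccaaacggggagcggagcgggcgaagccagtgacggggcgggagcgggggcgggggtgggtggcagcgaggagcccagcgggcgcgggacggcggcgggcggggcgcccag
Pax6: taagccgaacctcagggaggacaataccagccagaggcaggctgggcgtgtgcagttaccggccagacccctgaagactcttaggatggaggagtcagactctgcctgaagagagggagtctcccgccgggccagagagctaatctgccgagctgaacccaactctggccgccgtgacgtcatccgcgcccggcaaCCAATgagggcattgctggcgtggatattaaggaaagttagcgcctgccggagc
Dmrta2: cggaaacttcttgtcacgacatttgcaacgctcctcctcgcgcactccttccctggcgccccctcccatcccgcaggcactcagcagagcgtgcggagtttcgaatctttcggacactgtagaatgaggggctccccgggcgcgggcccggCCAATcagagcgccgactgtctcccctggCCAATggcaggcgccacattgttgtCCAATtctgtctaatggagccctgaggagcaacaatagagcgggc
Nr2f2: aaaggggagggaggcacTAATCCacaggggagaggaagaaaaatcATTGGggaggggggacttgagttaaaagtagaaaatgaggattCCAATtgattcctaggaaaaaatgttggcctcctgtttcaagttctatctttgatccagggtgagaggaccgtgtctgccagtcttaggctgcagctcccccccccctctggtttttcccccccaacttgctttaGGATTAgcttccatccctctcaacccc

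In base composition the 4 windows differ. The Lhx2 window has a GC content of 72.8% and the Dmrta2 window 61.6%, against 60.8% for Pax6, 50.0% for Nr2f2 and a median of 52.4% over all 32851 promoter windows. The ratio of observed to expected CpG is 0.895 for Lhx2, 0.812 for Dmrta2 and 0.652 for Pax6, and 0.064 for Nr2f2, where the median of all windows is 0.373. CCAAT occurs 3 times in the Dmrta2 window, 2 times in that of Nr2f2, 1 time in that of Pax6 and 0 times in that of Lhx2, and 33.8% of all windows hold it at least once. TAATCC occurs 2 times in the Nr2f2 window alone among the 4, and 6.25% of all windows hold it. The homeodomain core TAATTA, the nuclear receptor half-site AGGTCA and the TATA box TATAAA were also searched on both strands and have 0 matches in these 4 windows, with 4.84%, 14.0% and 12.4% of all windows holding them. Such a match is a string of letters and not a measured binding site. Windows were found for 8 of the 9 members.

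The 9 genes spanned a wide range of levels, from a group of 3 abundant factors to Otx2 near the floor of detection. Nr2f1, Pax6 and Lhx2 stood between 35.6 and 41.1 FPKM in every library, above 79.6% or more of the 13064 genes tested. Emx2 and Otx1 stood between 10.7 and 14.1 FPKM, Dmrta2 between 6.66 and 8.76 FPKM and Nr2f2 between 4.31 and 5.69 FPKM. Emx1 stayed below 1 FPKM and Otx2 at or below 0.131 FPKM in every library. The ranges of Nr2f1, Pax6 and Lhx2 over the 4 libraries overlapped, as did those of Emx2 and Otx1, so within either set the order is not beyond the spread. Each other step down the order separated all 4 libraries, with ratios of means of 2.97 for Lhx2 over Emx2, 1.49 for Otx1 over Dmrta2, 1.55 for Dmrta2 over Nr2f2, 7.20 for Nr2f2 over Emx1 and 9.15 for Emx1 over Otx2.

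**Figure D1:**
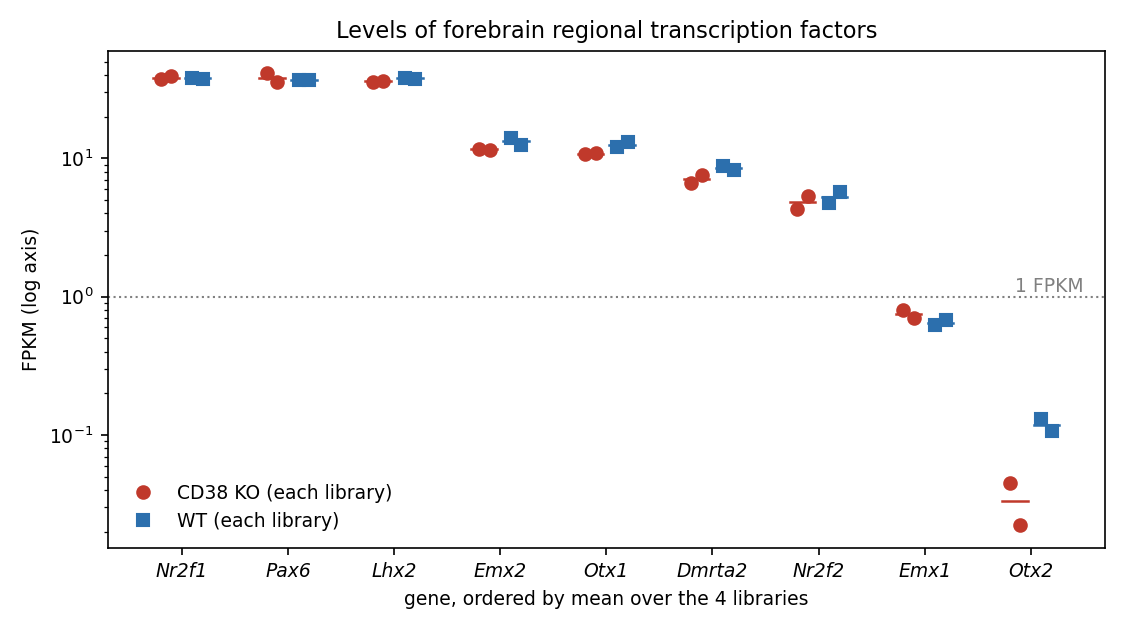
FPKM (log axis) of the 9 genes, ordered by their mean over the 4 libraries; circles are the CD38 KO libraries, squares the WT libraries and short lines the genotype means. Nr2f1, Pax6 and Lhx2 lie between 35.6 and 41.1 FPKM in all libraries, and Emx1 and Otx2 lie below the dotted line at 1 FPKM.

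No member was called different between the genotypes. Of the 7 members that averaged at least 1 FPKM, 0 were called higher and 0 lower in CD38 KO by limma at an adjusted p under 0.05, in a comparison that called 14.4% of all 13064 tested genes (8.00% higher and 6.35% lower). Without adjustment 2 of 7, Otx1 and Dmrta2, had a p under 0.05, where 30.3% of all tested genes passed. The median log2 change of the 7 was -0.10, against 0.00 over all tested genes, and their median absolute change was 0.10, against 0.12 over all tested genes. The genotypes did not overlap in 4 of the 7, all with CD38 KO lower, where 59.9% of tested genes did not overlap and 29.5% were lower without overlap. The share of members without overlap was thus close to that of all tested genes, and whether their shared direction differs from that of other genes was not tested. Changes are differences in log2(FPKM + 1), CD38 KO minus WT, and understate the change of low genes. Gene positions below are GENCODE M21 spans on GRCm38.

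Lhx2 (ENSMUSG00000000247, chromosome 2, 38339281 to 38369733, plus strand), a LIM homeodomain factor needed for cortical fate, was at 35.8 and 36.4 FPKM in the CD38 KO libraries, against 38.2 and 37.5 FPKM in the WT libraries. Both CD38 KO libraries lay below both WT libraries, by a small margin. The means were 36.1 ± 0.360 FPKM in CD38 KO and 37.8 ± 0.553 FPKM in WT (SD, n = 2 each). The log2 change was -0.07 (95% interval -0.18 to 0.05, limma adjusted p = 0.392).

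Pax6 (ENSMUSG00000027168, chromosome 2, 105668900 to 105697364, plus strand), a paired-box and homeodomain factor of pallial progenitors and the eye, was at 41.1 and 35.6 FPKM in CD38 KO, against 37.0 FPKM in each WT library. The CD38 KO libraries lay on either side of the WT pair, and their SD of 3.90 FPKM compares with 0.0209 FPKM in WT. With a log2 change of 0.05 (interval -0.14 to 0.23, limma adjusted p = 0.729) the difference lay within the replicate spread.

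Emx2 (ENSMUSG00000043969, chromosome 19, 59458372 to 59465357, plus strand), a homeodomain factor of caudal and medial cortex, was at 11.7 and 11.6 FPKM in CD38 KO, against 14.1 and 12.4 FPKM in WT. The groups did not overlap, and the CD38 KO mean was 87.9% of the WT mean. Its log2 change of -0.17 (interval -0.36 to 0.02) did not pass the test (limma adjusted p = 0.211).

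Emx1 (ENSMUSG00000033726, chromosome 6, 85187438 to 85204462, plus strand), the close relative of Emx2 and a marker of the pallial lineage, was at 0.801 and 0.698 FPKM in CD38 KO, against 0.620 and 0.675 FPKM in WT. CD38 KO was slightly above WT in both libraries. These values rest on 18 to 32 fragments a library, depending on which annotated transcript they come from, and Emx1 was below the filter and entered no test at the chosen settings. Within each library Emx2 exceeded Emx1 by 14.6 and 16.6 times in CD38 KO, and by 22.7 and 18.3 times in WT. The groups did not overlap in this ratio, and its difference between genotypes was not tested.

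Dmrta2 (ENSMUSG00000047143, chromosome 4, 109978053 to 109983687, plus strand), a DM-domain factor that acts with Emx2 in medial cortex, was at 6.66 and 7.60 FPKM in CD38 KO, against 8.76 and 8.18 FPKM in WT. Both CD38 KO libraries lay below both WT libraries, and the CD38 KO mean was 84.2% of the WT mean. Dmrta2 has 1 annotated transcript, so its values convert to about 533 and 609 fragments in CD38 KO and 648 and 637 in WT, with a counting error of 4.33% or less. The log2 change of -0.22 was the largest in size among the 7 (interval -0.44 to -0.0049, limma unadjusted p = 0.0465 and adjusted p = 0.158).

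Otx1 (ENSMUSG00000005917, chromosome 11, 21994764 to 22002897, minus strand), a homeodomain factor of cortical progenitors and deep-layer neurons, was at 10.7 and 10.9 FPKM in CD38 KO, against 12.0 and 13.2 FPKM in WT. The groups did not overlap, and the means were 10.8 ± 0.154 FPKM in CD38 KO and 12.6 ± 0.851 FPKM in WT (SD, n = 2 each). Its log2 change of -0.20 (interval -0.38 to -0.03) had the smallest p of the 7 and still missed the threshold over all genes (limma unadjusted p = 0.0294 and adjusted p = 0.117).

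Otx2 (ENSMUSG00000021848, chromosome 14, 48657677 to 48673819, minus strand), the relative of Otx1, was listed at 0.0447 and 0.0223 FPKM in CD38 KO, against 0.131 and 0.107 FPKM in WT. These are at most 3 and 2 fragments in CD38 KO and at most 9 and 7 in WT, so counting error is large at this depth. CD38 KO was lower in both libraries, at a level that entered no test at the chosen settings. The choroid plexus genes, which cover the tissue where Otx2 is best known after birth, were low as well: 1 of 12, Car12, averaged at least 1 FPKM, and the 12 summed to 5.87 and 4.66 FPKM in CD38 KO and 6.93 and 7.25 FPKM in WT. Ttr, the defining choroid plexus transcript, was listed at 0 in every library.

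Nr2f1 (ENSMUSG00000069171, chromosome 13, 78188973 to 78199757, minus strand) was the most abundant member on average and had the smallest difference between genotypes of the 7, at 37.2 and 39.4 FPKM in CD38 KO and 37.8 and 37.6 FPKM in WT. The WT libraries lay between the CD38 KO libraries. The log2 change was 0.02 (interval -0.11 to 0.15, limma adjusted p = 0.836).

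Nr2f2 (ENSMUSG00000030551, chromosome 7, 70351944 to 70366735, minus strand), known from caudal interneurons, veins and mural cells as well as from progenitors, was at 4.31 and 5.34 FPKM in CD38 KO, against 4.78 and 5.69 FPKM in WT. The groups overlapped, and its interval was the widest of the 7 in span, from -0.41 to 0.21 around a log2 change of -0.10 (limma adjusted p = 0.639). Nr2f1 exceeded Nr2f2 by 8.62 and 7.37 times in CD38 KO and by 7.91 and 6.61 times in WT. Genes of other cells that can hold Nr2f2 were measured beside it. Of 12 endothelial genes 1, Egfl7, averaged at least 1 FPKM, and the 12 summed to 6.37 and 6.07 FPKM in CD38 KO and 5.21 and 4.83 FPKM in WT. Egfl7 made up most of each sum and was not called (log2 change -0.13, limma adjusted p = 0.479). Below the filter, Pecam1 was at 1.39 and 1.10 FPKM in CD38 KO, against 0.542 and 0.214 FPKM in WT. Cdh5, Esam, Tie1 and Flt1 were also higher in CD38 KO without overlap, and Kdr was lower without overlap. The 10 mural genes summed to 95.8 and 109 FPKM in CD38 KO and 79.3 and 73.9 FPKM in WT. Of their 5 tested genes 1, Tagln, was called higher, where 8.00% of all tested genes were. Tagln made up most of the difference in the sums. Pdgfrb, Notch3 and Cspg4 had log2 changes of 0.03, 0.02 and -0.10, and Acta2 of 0.29, and were not called. Tagln was at 42.1 and 59.8 FPKM in CD38 KO and 31.9 and 27.0 FPKM in WT, and lost the call without CD38 KO 2 (limma adjusted p = 0.128), WT 1 (0.108) or WT 2 (0.198). The Tagln call was also lost with no filter, with a replicate block, with no trend in the prior and with robust moderation. The part of endothelial and mural cells in the Nr2f2 level was not tested.

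**Figure D2:**
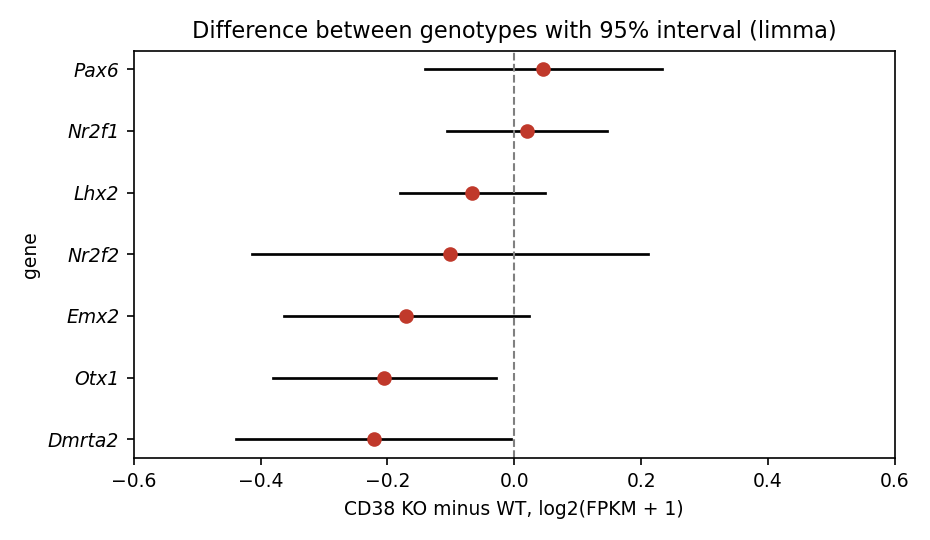
Difference between genotypes, CD38 KO minus WT in log2(FPKM + 1), for the 7 tested genes; points are limma estimates and lines 95% intervals without adjustment for the number of genes. The intervals of Otx1 and Dmrta2 lie just below 0, the others cross it, and the bound farthest from 0 is -0.44.

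Among these intervals, which rest on 2 libraries per genotype, the bound farthest from 0 was -0.44 for Dmrta2, and 5 of the 7 log2 differences were negative and 2 positive. A p that misses the threshold does not show that the genotypes are alike. The SE of the members (median 0.075) was close to that of all tested genes (median 0.076), and 360 genes in the same fit were called with a change above 1 in size. Across the 7 members the median absolute difference between libraries was 0.08 between the CD38 KO libraries and 0.09 between the WT libraries, against 0.08 to 0.15 for the 4 pairs of a CD38 KO with a WT library. The microglia and macrophage genes moved with genotype at the same time, with 18 of 18 tested members called higher in CD38 KO and a median log2 change of 2.30, and their part in the negative differences of the members was not tested.

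Antisense transcripts beside the members were read out at the same loci. Opposite-strand genes overlap 6 of the 9 members in GENCODE M21, and the position that the files give to 5 members (Emx2, Otx2, Pax6, Nr2f1 and Nr2f2) runs beyond the annotated gene. For Emx2, Pax6, Nr2f1 and Nr2f2 it reaches the far end of the opposite-strand gene. The libraries were stranded, per the labels' protocols, but whether strand was used in the counting is not given in the sources used here, so reads of a member and of its antisense partner cannot be told apart with certainty. Among the genes that the annotation classes as antisense within 5 kb of a member, those above 0.5 FPKM on average were A830082K12Rik at Nr2f1, Dmrta2os at Dmrta2 and Emx2os at Emx2, a limit set after the values were seen.

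Emx2os (chromosome 19, 59425104 to 59458635, minus strand) was at 0.512 and 0.423 FPKM in CD38 KO, against 0.902 and 0.959 FPKM in WT, a ratio of means of 0.502. It lay below the filter and was not tested, and both CD38 KO libraries were below both WT libraries. Dmrta2os (chromosome 4, 109976738 to 109977813, minus strand), whose annotated start lies inside the Dmrta2 window printed above, was at 2.03 and 1.88 FPKM in CD38 KO, against 3.12 and 2.81 FPKM in WT. Its log2 change of -0.42 (SE 0.11) just missed the threshold (limma adjusted p = 0.0579). A830082K12Rik (chromosome 13, 78198017 to 78279391, plus strand) was at 15.9 and 17.6 FPKM in CD38 KO, against 16.3 and 17.0 FPKM in WT, with a log2 change of 0.01 (limma adjusted p = 0.954). The antisense transcripts at Emx2 and Dmrta2 thus had a lower CD38 KO level beside members that were also lower without passing the test, and the one at Nr2f1 overlapped between genotypes as Nr2f1 did. Whether an antisense gene differed more than its member was not tested.

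The remaining annotated neighbours within 5 kb were near the floor or not called. Pax6os1 at Pax6, B130024G19Rik at Nr2f2 and Gm27197 and Gm13584 at Lhx2 stayed below 0.5 FPKM in every library, and Otx2os1, Gm49154 and Gm44948 were listed at 0 in all of them. The protein-coding neighbours Elp4 beside Pax6 (19.3 and 22.2 FPKM in CD38 KO, 18.7 and 18.2 FPKM in WT) and Ehbp1 beside Otx1 (9.48 and 9.28 FPKM in CD38 KO, 7.70 and 8.79 FPKM in WT) were not called (limma adjusted p = 0.246 and 0.235). Elp4, Ehbp1 and, near the floor, Gm13584 were higher in both CD38 KO libraries than in both WT libraries. Of all tested genes, 59.9% did not overlap between the genotypes, in either direction.

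**Figure D3:**
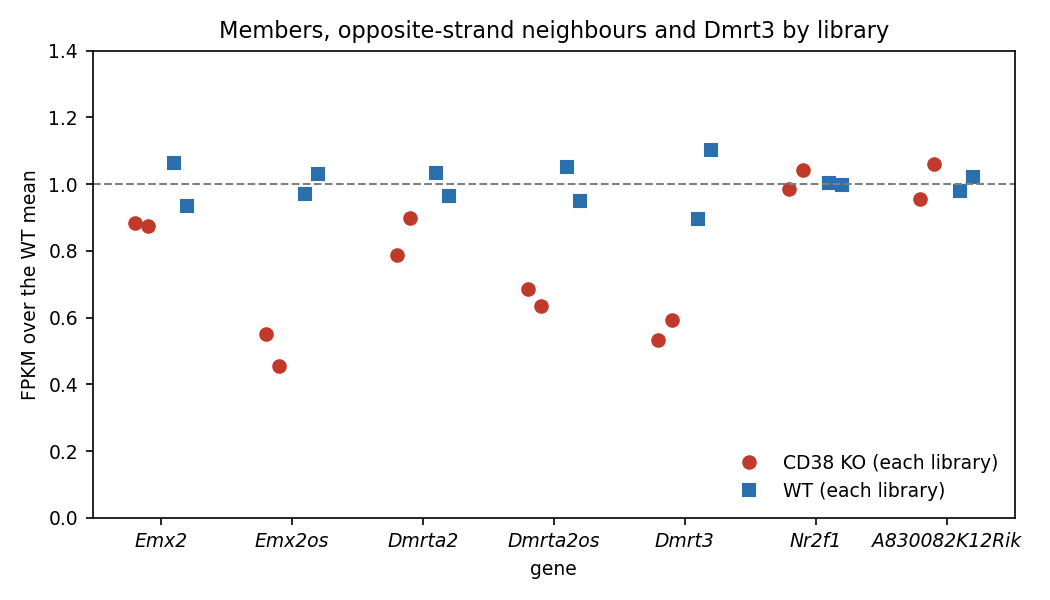
FPKM of each library divided by the mean of the WT libraries, for Emx2, Dmrta2 and Nr2f1, their antisense neighbours Emx2os, Dmrta2os and A830082K12Rik, and Dmrt3; circles are CD38 KO and squares WT, and the dashed line is the WT mean. CD38 KO circles lie below the WT squares for Emx2, Emx2os, Dmrta2, Dmrta2os and Dmrt3, and the genotypes overlap for Nr2f1 and A830082K12Rik. The neighbours Elp4, Ehbp1 and Gm13584, higher in CD38 KO without overlap, are not shown.

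Close relatives of the members were mostly low, with 1 of 10, Nr2f6, above 1 FPKM on average. Nr2f6, another COUP-TF-type receptor, was at 18.4 and 18.2 FPKM in CD38 KO and 17.4 and 17.1 FPKM in WT (log2 change 0.08, limma adjusted p = 0.367). Dmrt3, the DM-domain relative of Dmrta2 in medial cortex, was at 0.558 and 0.618 FPKM in CD38 KO, against 0.938 and 1.15 FPKM in WT, without overlap and below the filter. Lhx9, the nearest relative of Lhx2, and Crx, another member of the Otx family, were listed at 0 in every library.

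Of the 27 telencephalon and pallial progenitor genes 19 averaged at least 1 FPKM and 5 averaged under 0.1 FPKM. The 5 were Tbr1, Eomes, Neurog1, Neurog2 and Tfap2c, with Neurog1 listed at 0 in every library. Genes of more caudal regions were mostly near the floor. The lists do not differ by region alone, since Nfia, for example, is also on the astrocyte list. Of the 39 Hox genes, which mark the hindbrain and spinal cord, 0 averaged 0.1 FPKM or more and 28 were listed at 0 in every library. The Hox genes summed to 0.291 and 0.210 FPKM in CD38 KO, against 0.101 and 0.281 FPKM in WT. Among the 20 midbrain and hindbrain genes 15 averaged under 0.1 FPKM, and 0 of the 2 tested were called. Egr2, also known from cells outside these regions, was at 7.53 and 3.83 FPKM in CD38 KO and 4.29 and 8.89 FPKM in WT (limma adjusted p = 0.799). Of 20 diencephalon and hypothalamus genes the one that averaged at least 1 FPKM was Tcf7l2, a Wnt pathway factor also made by glia, at 8.41 and 8.90 FPKM in CD38 KO and 7.82 and 9.28 FPKM in WT.

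**Figure D4:**
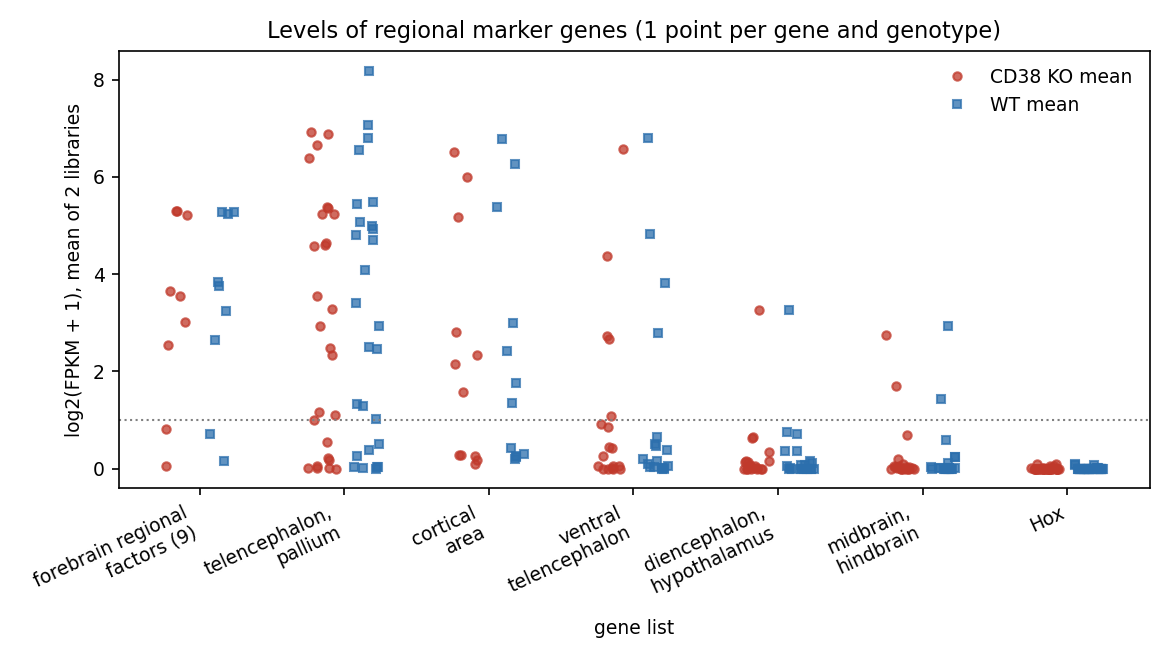
Mean level of each gene in log2(FPKM + 1) for the 9 forebrain regional factors and 6 lists of regional marker genes, with CD38 KO as circles and WT as squares, each the mean of 2 libraries; the dotted line is 1 FPKM. The telencephalic list runs from genes at the bottom up to Hopx at the top, while the Hox points all lie at the bottom.

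Other telencephalic genes were read list by list. In the list of 27 telencephalon and pallial progenitor genes, 0 of 19 tested genes were higher and 2 lower, where 14.4% of all tested genes were called, with a median log2 change of -0.13. Hopx, a homeodomain-only protein of radial glia and astrocytes, was at 120 FPKM in each CD38 KO library, against 305 and 276 FPKM in WT (log2 change -1.27, SE 0.06, limma adjusted p = 0.000175). Gli3, which mediates Sonic hedgehog signals and patterns the dorsal telencephalon, was at 10.8 and 10.5 FPKM in CD38 KO, against 15.5 and 16.5 FPKM in WT (log2 change -0.54, limma adjusted p = 0.00503). The Gli3 call ended without CD38 KO 1 (0.0622), without CD38 KO 2 (0.0668) and without WT 2 (0.0551), all limma adjusted p, while Hopx was called in all 4 fits without 1 library.

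Among 19 genes of the cortical hem and of patterning signals, 2 of 4 tested genes were higher, Fgf18 and Bmp6, and 2 lower, Msx2 and Wnt5a. Of all tested genes 8.00% were called higher and 6.35% lower. Msx2, a target of BMP signals at the dorsal midline, was at 6.19 and 6.99 FPKM in CD38 KO, against 13.9 and 12.8 FPKM in WT (log2 change -0.92, SE 0.08, limma adjusted p = 0.00222), and was the one of these called in every fit without 1 library. Wnt5a and Bmp6 lost the call in all 4 such fits (limma adjusted p up to 0.170 and 0.215), and Fgf18 in all but the fit without CD38 KO 2 (up to 0.0762). In the cortical area list 0 of 7 were higher and 2 lower, Lmo4 and Fgfr3. Both lost the call in all 4 fits without 1 library and where all genes were tested without a filter. They also lost it with a replicate block and with no trend in the prior.

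Ventral telencephalon genes were sparse, with 4 of 18 above 1 FPKM on average. Of these 4, 0 were higher and 2 lower, where 14.4% of all tested genes were called. The fits without CD38 KO 1, CD38 KO 2 or WT 2, and the fit with no filter, called 1 lower in place of 2. Meis2 was high in both genotypes, at 103 and 86.4 FPKM in CD38 KO and 104 and 117 FPKM in WT, and was not called (limma adjusted p = 0.210). Nkx2-1, which defines the medial ganglionic eminence, stayed below 0.1 FPKM in every library. Whether the members differed from these lists was not tested, and the microglia and macrophage genes were higher in CD38 KO beside all of them, with a median log2 change of 2.30.

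Genes of the other cell types that a cortical culture can hold were read in the same fit, in which 14.4% of all tested genes were called. Of 17 tested astrocyte genes 3 were called higher and 9 lower in CD38 KO, with a median log2 change of -0.27, and the 18 listed genes summed to 4798 and 4668 FPKM in CD38 KO, against 5728 and 5698 FPKM in WT. The median of the 7 tested regional factors, -0.10, lies on the same side of 0 and closer to it. Fits without 1 library called 0 to 2 astrocyte genes higher, in place of 3, and 2 to 5 lower, in place of 9. Of 7 tested oligodendrocyte lineage genes 0 were higher and 2 lower, Pdgfra and Olig2, and the 12 listed summed to 167 and 179 FPKM in CD38 KO, against 205 and 199 FPKM in WT. Olig2 lost the call in all 4 fits without 1 library (limma adjusted p up to 0.148), and Pdgfra in all but the fit without WT 1 (up to 0.120).

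Interneuron genes were read because Nr2f1 and Nr2f2 are also known from interneurons, and 1 of 2 tested was called lower and 0 higher. Of the 12, Gad1, the main GABA-synthesising enzyme, made up most of the sum, at 46.1 and 41.7 FPKM in CD38 KO, against 71.4 and 81.5 FPKM in WT (log2 change -0.78, limma adjusted p = 0.00334, and 0.0581 without CD38 KO 2), and its call was also lost with no filter on low values. Npy, the other tested gene, was at 1.39 and 1.64 FPKM in CD38 KO and 1.58 and 0.625 FPKM in WT and was not called (limma adjusted p = 0.464). Below the filter, Dlx1 was at 1.13 and 0.650 FPKM in CD38 KO, against 0.247 and 0.373 FPKM in WT, and Dlx2 at 1.02 and 1.195 FPKM in CD38 KO, against 0.420 and 0.729 FPKM in WT, so both stood higher in CD38 KO without overlap. Gad2, Slc32a1 and Lhx6 stayed below 0.1 FPKM in every library. Vip, which defines one interneuron class, was listed at 0 in every library. Of 4 tested neuron genes 1, Stmn2, was higher and 0 lower, with list sums of 89.1 and 97.6 FPKM in CD38 KO and 68.3 and 68.0 FPKM in WT. Most of that difference is Stmn2, at 54.8 and 56.1 FPKM in CD38 KO, against 30.7 and 28.8 FPKM in WT, and the median log2 change of the 4 tested neuron genes was -0.04. Of 4 tested ependymal genes 2 were higher, Foxj1 and Pifo, and 0 lower, and the 10 listed summed to 100.5 and 97.5 FPKM in CD38 KO, against 81.5 and 78.9 FPKM in WT. Most of that difference is Foxj1, at 57.0 and 54.7 FPKM in CD38 KO, against 39.4 and 37.7 FPKM in WT. Rarres2 went the other way, at 28.5 and 31.5 FPKM in CD38 KO, against 36.2 and 33.4 FPKM in WT. Rarres2 (log2 change -0.21, limma adjusted p = 0.112) and Cfap126 (0.65, limma adjusted p = 0.0734) were not called. Pifo lost the call without CD38 KO 1 (limma adjusted p = 0.113) or CD38 KO 2 (0.116), and Foxj1 kept it in all 4 such fits. Of 7 tested meningeal fibroblast genes 0 were higher and 1, Ogn, lower, with list sums of 85.4 and 58.2 FPKM in CD38 KO and 54.7 and 63.8 FPKM in WT, and Ogn lost the call in all 4 such fits (limma adjusted p up to 0.193). The part of any of these cells in the levels of the 9 factors was not tested.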

How the data were processed

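RNA of 4 libraries of cultured cortical astrocytes, 2 CD38 KO and 2 WT, was analysed from values the authors deposited. Per the file headers these are FPKM per gene, 1 for each of 55467 gene IDs. Tools listed in the submitters' processing notes are bcl2fastq (2.17), the aligner STAR (2.7.0f) and Cufflinks (2.2.1), with the build GRCm38. Which annotation they used, and whether libraries were scaled to each other, is not given in the sources used here. Gene spans came from GENCODE M21 on GRCm38, which held 55226 of the IDs. For the 113 symbols shared by several IDs, the one with the highest mean was kept.

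The test was limma (3.58.1, under R 4.3.3) on log2(FPKM + 1), in which genotype was the one term and the prior had a trend, over the 13064 genes whose mean reached 1 FPKM, Cd38 kept at any level. P-values were adjusted by Benjamini and Hochberg's method over these genes and called at 0.05. The values are not counts, so no count test was run. Depth was estimated from steps of 1 fragment in 17493 genes with 1 transcript over 600 bases, where 91.8% to 92.4% of values under 10 fragments fell within 0.1 of a whole number. Fragment numbers and their errors cover counting error only.

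The members and the 18 lists of other genes were chosen with earlier results of these data known. The text names every member, genes within 5 kb of one and, from the regional lists, called genes of smallest p and genes of highest mean; other names were chosen after their values were seen. Alternatives were other values added before the log (0.1, 0.5), no filter or one at 5 FPKM, 2 scalings, a replicate block, other moderation, protein-coding genes alone and each library left out. Other steps used Python 3.11.15. Results of some listed genes are not reported here.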

Additional observations from a re-analysis of the deposited data

How the results depend on the processing

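No member was called under any of the 15 alternatives, with 105 recomputed values for the 7 tested members, and the limma adjusted p ranged from 0.0878 to 0.989. Emx2, Lhx2, Otx1 and Dmrta2 were lower in CD38 KO in every alternative, with log2 changes of -0.26 to -0.08, -0.08 to -0.05, -0.27 to -0.14 and -0.30 to -0.14. Signs turned in fits without 1 library: Pax6 ran from -0.056 without CD38 KO 1 to 0.147 without CD38 KO 2, Nr2f1 from -0.021 without CD38 KO 2 to 0.060 without CD38 KO 1, and Nr2f2 from -0.229 without CD38 KO 2 to 0.027 without CD38 KO 1, with 0.0046 without WT 2. In such a fit 1 library stands alone for its genotype, and the libraries of Pax6, Nr2f1 and Nr2f2 overlapped between the genotypes. Why the libraries of a genotype differ was not tested. Without a filter Emx1 and Otx2 could be fitted and were not called (log2 changes of 0.09 and -0.11, limma adjusted p = 0.599 and 0.149).

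Over all genes, no filter gave 430 higher and 312 lower, and the fits without 1 library gave 306 to 458 higher and 225 to 284 lower, in which fewer samples enter. With a replicate block the calls numbered 610 higher and 427 lower. The labels give both genotypes the numbers 1 and 2 and do not say that a number marks a shared litter or day. Across genes the differences of CD38 KO 1 from 2 and of WT 1 from 2 had r = -0.161. A block with crossed numbers, chosen after seeing the data, gave 1102 higher and 859 lower. Of 540 recomputed list counts 72 moved by over 1.5 times or between 0 and another count. Counts of 0 in both fits are among those that did not move.

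Otx2 and Emx1 are limited by depth, with at most 9 and 32 fragments a library.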
